A study of Homo sapiens with 5 samples.

Results

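The comparison described here sets PC-3 cells that carry a short hairpin RNA against GFP (shGFP) beside PC-3 cells from ordinary flat culture (2D). It uses 2 of the 5 arrays of the study, chosen by their titles, and each condition has 1 array. The other arrays hold PC-3 cells with the hairpins shTRIB1-1 and shTRIB1-2, which target TRIB1, and PC-3 cells from spheroid culture. Messenger RNA was measured on Affymetrix arrays from total RNA, and the labels state that no sample was treated. The shGFP sample is labelled as the genetic control, and the 2D sample is labelled by its culture condition, with no hairpin named. The same growth protocol, in dishes to near confluence, is recorded for all 5 samples. The sources used here do not give the vector, the delivery and the selection of the hairpin, or whether the line is a clone or a pool. Nothing in the labels says whether the arrays came from separate cultures. No difference below has a replicate check, and no test between conditions could be made.

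PC-3 is a human prostate cancer cell line derived from a bone metastasis and grows without androgen. A short hairpin RNA is cut by the cell's small RNA machinery into a guide that silences a matching transcript. GFP is a jellyfish protein with no human counterpart, so a GFP hairpin serves as a control for carrying a hairpin at all. Among the gene groups described below, immediate early genes switch on within minutes of fresh serum or stress in many cell types. The integrated stress response follows amino acid shortage or unfolded protein, and replication genes follow the cell cycle.

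Expression is given as a level, the log2 of the deposited intensity, and a difference is the level on the shGFP array minus the level on the 2D array. A difference of 1 is 2-fold. A gene with several probe sets is read from the brightest, judged by the mean over the 5 arrays. Where a value by the median of a gene's probe sets is also given, the median level of all of them was taken on each array and the difference formed from these medians. Of 19775 genes with a probe set of their own, 10450 had a level of at least 6 on either array and were compared. Of these, 9912 reached 6 on both arrays. A level under 6 is close to background, so a difference that starts from there has an uncertain size.

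The 2 arrays differed in their control probe sets. The ratio of 5′ to 3′ signal, a measure of how much of a transcript's length was copied into labelled RNA, was 0.436 for actin on the shGFP array and 0.184 on the 2D array. The shTRIB1-1 and shTRIB1-2 arrays gave 0.445 and 0.442, and the spheroid array gave 0.131. GAPDH, the other control of the cells' own RNA, differed less, with 0.944 on shGFP and 0.895 on 2D. Bacterial transcripts added before labelling moved the same way, with thr at 0.264 on shGFP and 0.113 on 2D and dap at 0.293 and 0.185. Controls added after labelling did not separate the arrays in this way, with bioB at 0.728 and 0.729. The 3 hairpin arrays therefore had higher ratios than the 2D and spheroid arrays for actin and for all 4 labelling controls, and the part of this in the differences below was not tested. Carrying a hairpin, handling of the line and processing of the array cannot be told apart in this pair.

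**Figure D1:**
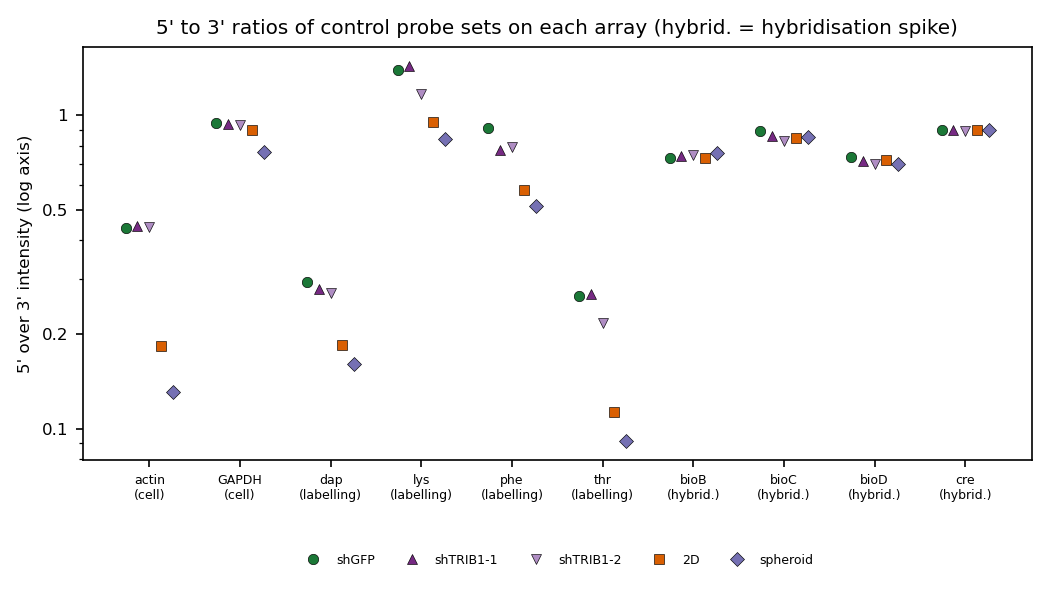
Ratio of 5′ to 3′ intensity (vertical log axis) of 10 control transcripts, with 1 symbol for each of the 5 arrays. For actin the 3 hairpin arrays lie between 0.436 and 0.445 and the 2D and spheroid arrays at 0.184 and 0.131, while the 4 hybridisation controls lie together on all arrays.

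All 9 epithelial and adhesion markers measured for PC-3 were above 6 on both arrays, with a summed level of 103.1 on shGFP and 101.3 on 2D. Single markers differed in both directions, with CAV1 higher on shGFP by 1.01, KRT8 higher by 0.82 and ITGB4 at -0.95. Of 7 measured luminal prostate genes, which are expected to be low in PC-3, KLK2, FOLH1 and ACP3 were under 6 on both arrays. SLC45A3 was well above 6, at 8.72 on shGFP and 8.90 on 2D, and TMPRSS2 was at 6.09 and 5.78. KLK3 and KLK4 each had the same level on both arrays, 6.90 and 6.99. Of the blood markers 4 of 5 were under 6 on both arrays (summed level 24.4 on shGFP and 24.6 on 2D). The counts under 6 were 5 of 6 for endothelium (29.0 and 29.4), 7 of 8 for fibroblasts (40.04 and 39.46) and 5 of 6 for neuroendocrine cells (25.8 and 26.0).

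Across all genes the 2 arrays were close to symmetric. At least 2-fold higher on shGFP were 223 genes (2.13% of those compared), and 221 genes (2.11%) were at least 2-fold lower. Among genes at 6 or more on both arrays these counts were 176 (1.78%) and 162 (1.63%). The median difference was 0.00, the SD over genes was 0.46, and 81.9% of genes differed by less than 0.5. The far ends were less even: 26 genes were at least 4-fold higher and 15 at least 4-fold lower, and 11 were at least 8-fold higher against 1 at least 8-fold lower. Counted in the same way for other pairs, 444 genes differed 2-fold in either direction between shGFP and 2D (4.25%), 396 between shGFP and shTRIB1-1 (3.81%), 223 between shGFP and shTRIB1-2 (2.14%) and 532 between shTRIB1-1 and shTRIB1-2 (5.11%). The 2D array differed from shTRIB1-1 at 940 genes and from shTRIB1-2 at 921. By this count the control hairpin and the 2D culture were farther apart than the control hairpin and either TRIB1 hairpin, with no replicate to show how much arrays of 1 condition differ.

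**Figure D2:**
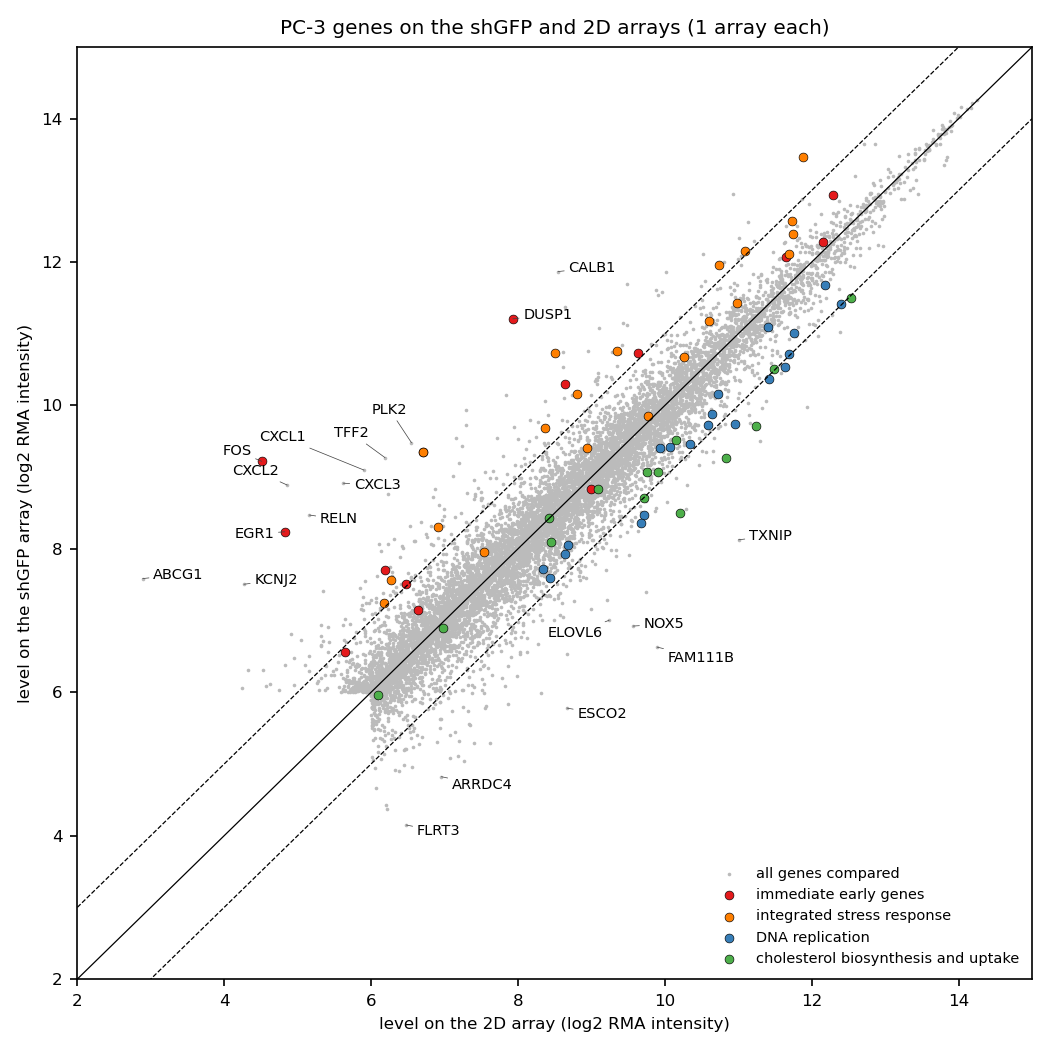
Level of each of 10450 genes on the 2D array (horizontal) and on the shGFP array (vertical), in log2 intensity; the solid line marks equal levels and the dashed lines a 2-fold difference. Immediate early genes and integrated stress response genes lie mostly above the solid line, and all 20 DNA replication genes lie below it.

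The genes highest on shGFP included transcription factors, chemokines and a lipid transporter. FOS, the AP-1 subunit induced by growth factors, stood at 9.22 on shGFP, 7.82 on shTRIB1-1, 10.12 on shTRIB1-2, 4.51 on 2D and 4.61 on spheroid. Its difference of 4.71 corresponds to 26.2-fold. ABCG1, which exports cholesterol from cells, was at 7.59, 7.01 and 6.75 on the hairpin arrays in the same order, 2.89 on 2D and 3.58 on spheroid (difference 4.69). Both genes were under 6 on the 2 arrays without a hairpin and above it on all 3 hairpin arrays. CALB1, a calcium-binding protein, was high throughout flat culture: 11.87 on shGFP, 10.21 on each TRIB1 hairpin array, 8.55 on 2D and 4.74 on spheroid. RELN, a secreted matrix protein, was at 8.47, 6.83 and 8.31 on the hairpin arrays and at 5.16 on 2D and 5.0 on spheroid. KCNJ2, a potassium channel, was at 7.51, 8.30 and 8.58 against 4.27 and 6.43. In each case the 2D level was below those of all 3 hairpin arrays. TFF2, a secreted trefoil peptide, differed by 3.08 between shGFP (9.27) and 2D (6.19), and PLK2, a kinase of the polo family, by 2.93 (9.48 and 6.55).

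The genes lowest on shGFP included several tied to DNA replication and to lipid or glucose use. FAM111B, a protease-like protein of dividing cells, was at 6.63 on shGFP, 7.19 on shTRIB1-1, 6.84 on shTRIB1-2, 9.90 on 2D and 7.73 on spheroid, a difference of -3.27. ESCO2, which acetylates cohesin in S phase, was at 5.78 on shGFP and 8.67 on 2D. The 2D array was the highest of all 5 for both genes. TXNIP, a brake on glucose uptake, was at 8.13 on shGFP, 10.65 and 9.44 on shTRIB1-1 and shTRIB1-2, 11.00 on 2D and 11.70 on spheroid. Its 3 probe sets gave differences from -3.34 to -2.08, and its relative ARRDC4 was at 4.82 on shGFP and 6.96 on 2D. For these 2 arrestin-family genes shGFP was the lowest of the 5 arrays. A list of TXNIP and glucose-sensing genes, drawn up after the values were seen, had no common direction. Of its 7 compared genes 3 were higher and 4 lower, with a median of -0.07. ARRDC3 was among the higher ones, at 9.06 on shGFP and 8.47 on 2D. NOX5, an oxidase that makes superoxide, was at 6.92 on shGFP and 9.57 on 2D, and ACOX2, an enzyme of peroxisomal bile acid synthesis, at 7.40 and 9.75. Both were low on all 3 hairpin arrays, with NOX5 at 6.20 and 7.10 and ACOX2 at 6.53 and 6.93 on shTRIB1-1 and shTRIB1-2. HAS2, which makes hyaluronan, was at 5.04 on shGFP and 7.27 on 2D, and the adhesion protein FLRT3 at 4.15 and 6.48. The linker histone H1-3 was at 5.98 and 8.32, and RUSC1-AS1, an antisense transcript, at 6.54 and 8.67. SERPINB3, a protease inhibitor, was at 5.29 and 7.62, but its probe set may also detect the near-identical SERPINB4.

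**Figure D3:**
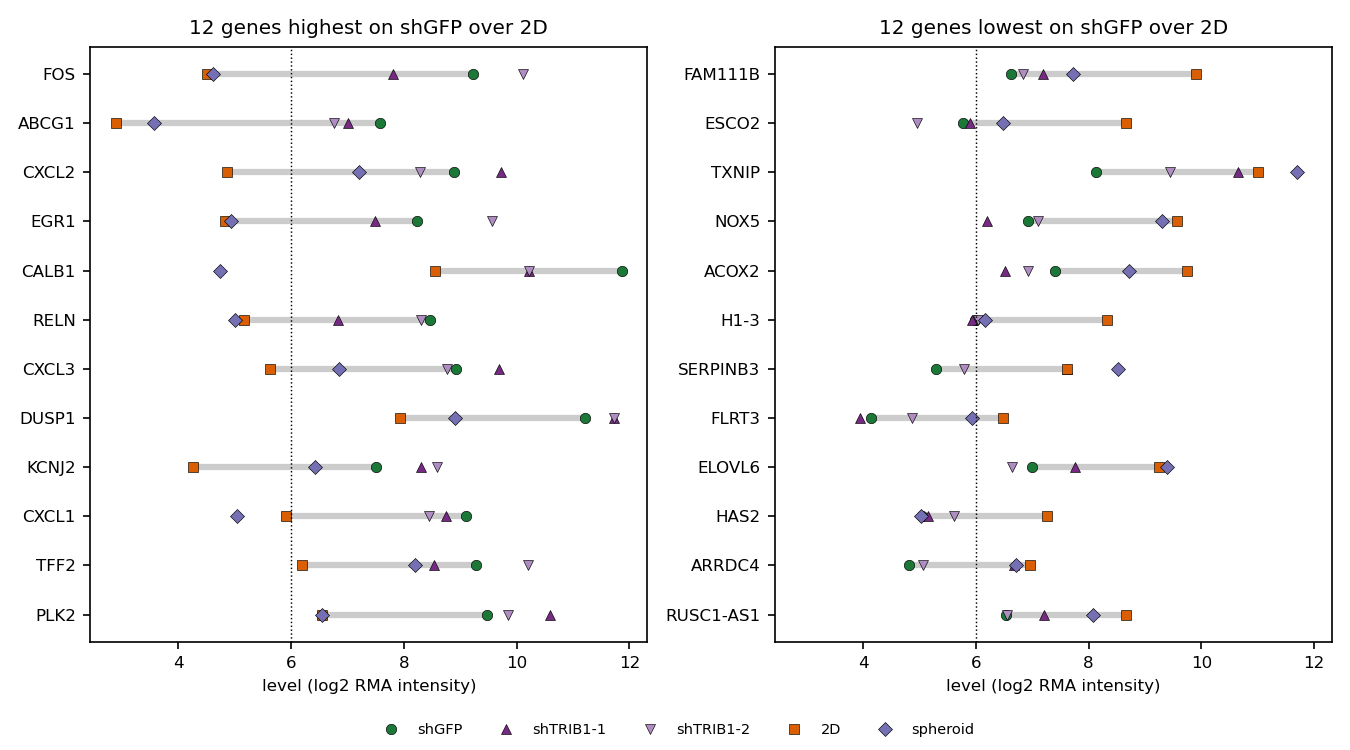
Levels (log2 intensity) on all 5 arrays of the 12 genes with the highest and the 12 with the lowest difference between shGFP and 2D; grey bars join the 2 compared arrays and the dotted line marks a level of 6. In the left panel the square of the 2D array lies left of all 3 hairpin symbols in every row.

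Immediate early genes and the integrated stress response had the highest medians of the 40 lists. Of 16 fixed immediate early genes 14 were compared, and 13 were higher on shGFP (48.9% of all compared genes were higher). At least 2-fold higher were 8 (2.13% of all compared genes were), and none was 2-fold lower. The median difference was 1.07, against 0.00 over all compared genes. At 6 or more on both arrays, 6 of 11 were 2-fold higher. EGR1, a zinc finger transcription factor of the early growth response, was at 8.24 on shGFP, 7.50 on shTRIB1-1, 9.57 on shTRIB1-2, 4.82 on 2D and 4.94 on spheroid. The order of the arrays was the one seen for FOS, with shTRIB1-2 highest and the arrays without a hairpin under 6. Its probe sets differed in size, from 1.16 to 3.41, and the difference by the median of its probe sets was 1.38. DUSP1, the phosphatase that switches off MAP kinases, was at 11.21 on shGFP and 7.93 on 2D. Its 3 probe sets gave differences of 3.28, 1.07 and -0.16, the last with both levels under 6. By the median of its probe sets the difference was 0.54, under 2-fold. KLF6 was higher by 1.66 (10.30 and 8.64), the RNA decay factor ZFP36 by 1.52 (7.71 and 6.19) and JUN by 1.10 (10.74 and 9.64). The JUN probe set outside those that can detect related transcripts gave 0.86. FOSL1 was the 1 member that was lower, at 8.83 on shGFP and 8.99 on 2D.

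The CArG box, bound by serum response factor, was searched on both strands in the 250 bases before each gene start of the RefSeq promoter table (GRCh38.p14). It was present in 1.14% of 27305 promoters, and EGR1 was the 1 gene with a match among 11 immediate early genes that the table holds. The stretch is shown because EGR1 was among the 12 highest genes. It spans chr5:138465339-138465440, plus strand, and capitals mark its 2 matches.
EGR1: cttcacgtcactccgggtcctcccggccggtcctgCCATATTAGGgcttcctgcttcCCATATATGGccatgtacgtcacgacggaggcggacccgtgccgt
A match describes the letters alone, not a bound site.

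Chemokines of the CXCL group were higher on the shGFP array. They attract neutrophils and are common targets of NF-kB. CXCL2 was at 8.89 on shGFP, 9.72 on shTRIB1-1, 8.28 on shTRIB1-2, 4.86 on 2D and 7.21 on spheroid. CXCL3 was at 8.92 and 5.62 on shGFP and 2D, and CXCL1 at 9.10 and 5.90. CXCL8, measured at 6 or more on both, was at 10.54 and 8.62. The 4 chemokines were lower on 2D than on any hairpin array, but their sequences are alike and some of their probe sets may detect more than 1 of them. IL6, a cytokine of acute inflammation, was at 6.51 on shGFP and 5.16 on 2D (0.87 with a pseudocount of 32). Among 11 compared genes of the inflammatory list 9 were higher, 5 at least 2-fold (2.13% of all compared genes were), with a median of 0.64. Of those 11 genes 5 were under 6 on 2D. Among the 6 at 6 or more on both arrays 1 was 2-fold higher and the median was 0.29. The NF-kB subunit NFKB1 had the same level, 7.80, on both arrays, and the feedback inhibitor NFKBIA was at 9.33 and 9.16. On the TRIB1 hairpin arrays the medians of the list against the same 2D array were 2.72 and 1.64.

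Every compared gene of the integrated stress response was higher on the shGFP array. The pathway slows translation and lets ATF4 switch on genes for amino acid supply and survival. All 20 compared genes were at 6 or more on both arrays, 11 differed by 2-fold or more, and their list's median was 1.07 (0.85 when all probe sets of a gene were used). DDIT3, the transcription factor CHOP, was at 10.73 on shGFP, 10.25 on shTRIB1-1, 9.80 on shTRIB1-2, 8.51 on 2D and 10.65 on spheroid. ATF3, a repressor induced by ATF4, was at 9.35, 9.68, 9.28, 6.70 and 8.67 in that order. For both genes the 2D array stood below the other 4. GDF15, a secreted stress signal, was at 13.47 on shGFP and 11.88 on 2D, and was between 13.44 and 13.76 on the other arrays. Other members were highest on shGFP itself. CHAC1, which degrades glutathione, was at 8.31 on shGFP, 6.98 and 7.25 on shTRIB1-1 and shTRIB1-2, 6.91 on 2D and 6.37 on spheroid. SLC3A2, the heavy chain of amino acid transporters, was at 9.68, 8.90, 8.77, 8.37 and 9.15. TRIB3, a pseudokinase that binds ATF4, was at 11.96 on shGFP and 10.74 on 2D, and ASNS, asparagine synthetase, at 12.15 and 11.09. By the median of its probe sets ASNS differed by 0.55, under 2-fold. ATF4 itself was at 12.40 and 11.75. The smallest difference was that of the transporter SLC7A5, at 9.85 and 9.78. CTH, which makes cysteine and is not a member of the list, was at 9.54 and 7.15, and its 2 probe sets gave 2.39 and 2.30. Against the same 2D array the list's medians were 0.46 for shTRIB1-1, 0.59 for shTRIB1-2 and 0.79 for spheroid.

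The core of the composite element bound by ATF4 and C/EBP proteins, TGATGNAA on either strand, was present in 3.19% of the 27305 promoters, in 1.44% of the 8680 promoters of compared genes and in 3 of the 18 compared members that the table holds. These stretches are shown because the 3 genes were each at least 2-fold higher on shGFP, with capitals on the match. They span chr1:212565181-212565258, plus strand for ATF3, chr15:40953227-40953304, plus strand for CHAC1 and chr7:97872434-97872511, minus strand for ASNS.
ATF3: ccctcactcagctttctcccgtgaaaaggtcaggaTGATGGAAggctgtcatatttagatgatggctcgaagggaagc
CHAC1: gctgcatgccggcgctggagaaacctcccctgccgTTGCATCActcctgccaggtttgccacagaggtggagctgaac
ASNS: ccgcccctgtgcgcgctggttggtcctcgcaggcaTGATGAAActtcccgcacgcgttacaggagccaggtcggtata
In CHAC1 the match is on the opposite strand.

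Genes for folding proteins in the endoplasmic reticulum (ER) were higher on shGFP by smaller amounts. Of 22 compared chaperones and folding enzymes 21 were higher, with a median of 0.52. By 2-fold or more 4 were higher (2.13% of all compared genes were), and 3 of the 21 at 6 or more on both arrays. DNAJB9, a co-chaperone that restrains the sensor IRE1, was at 10.75 on shGFP, 10.50 on shTRIB1-1, 10.14 on shTRIB1-2, 8.62 on 2D and 9.95 on spheroid. CRELD2, a secreted ER stress protein, was at 10.84, 9.97, 10.01, 9.42 and 9.36, and SDF2L1, a partner of the chaperone BiP, at 10.30, 9.40, 8.71, 9.08 and 8.98. For CRELD2 and SDF2L1 the shGFP array was the highest of the 5. HSPA5, which encodes BiP, was at 13.65 on shGFP and 12.71 on 2D, with 13.15, 13.18 and 13.37 on the other arrays, and by the median of its probe sets its difference was 1.42. The oxidase ERO1A was the 1 member that was lower, at 10.77 and 10.96. Among genes of ER-associated degradation and the unfolded protein sensors 10 of 11 were higher and 2 at least 2-fold, with a median of 0.53. These were HERPUD1, a scaffold of the degradation complex (11.86 on shGFP and 10.02 on 2D), and XBP1, the transcription factor activated by IRE1 (9.63 and 8.58; 0.65 by the median of its probe sets). Aminoacyl-tRNA synthetases, many of which are ATF4 targets, were higher in 14 of 15 cases with a median of 0.26 and no 2-fold member. SARS1 had the largest difference among them, with 11.65 and 10.76. Heat shock proteins of the cytosol and mitochondria did not share the direction: 8 of 9 were lower, none 2-fold, and the median was -0.08. The medians of the ER chaperone list on the TRIB1 hairpin arrays, against the same 2D array, were 0.18 and 0.04.

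The ER stress response element, CCAAT and CCACG with 9 bases of any kind between them, on either strand, was present in 0.0806% of the 27305 promoters, in 12 of the 8680 compared genes that the table holds (0.138%) and in 6 of 20 compared ER chaperone genes. The 6 genes were HSPA5, HSP90B1, CALR, CANX, CRELD2 and ERO1B, and their differences ranged from 0.16 to 1.42. Shown are the genes with the highest and the lowest of these differences and the promoter of BiP, with the match in capitals. They span chr22:49918519-49918607, plus strand for CRELD2, chr9:125241356-125241444, minus strand for HSPA5 and chr19:12938359-12938437, plus strand for CALR.
CRELD2: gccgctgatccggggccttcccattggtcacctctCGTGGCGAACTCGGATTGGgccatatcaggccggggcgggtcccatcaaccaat
HSPA5: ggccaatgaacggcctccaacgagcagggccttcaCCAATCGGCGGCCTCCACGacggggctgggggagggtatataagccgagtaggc
CALR: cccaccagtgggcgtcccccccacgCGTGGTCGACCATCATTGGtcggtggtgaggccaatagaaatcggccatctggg
HSP90B1 held 2 matches and was at 11.31 on shGFP and 10.92 on 2D.

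Genes of DNA replication and mitosis were lower on shGFP without exception among those compared. All 20 replication genes were at 6 or more on both arrays and were lower (47.3% of all compared genes were lower), 5 of them at least 2-fold, with a median of -0.80. MCM2, a subunit of the replicative helicase, was at 8.47 on shGFP, 8.29 on shTRIB1-1, 8.18 on shTRIB1-2, 9.71 on 2D and 7.78 on spheroid. MCM6, of the same helicase, was at 10.54 and 11.64 on shGFP and 2D, and POLE2, a subunit of DNA polymerase epsilon, at 9.75 and 10.96. GINS2, which completes the helicase, was at 8.37 and 9.68 by its chosen probe set, and the difference was 0.00 in the other of its 2 probe sets at 6 or more and by the median of all 3. For the genes named here the 2D array was the highest of the 5. All 20 genes of G2 and M phase were also lower, with a median of -0.71 and 1 gene at least 2-fold lower (2.11% of all compared genes were). That gene was KIF11, a motor of spindle assembly, at 8.39 on shGFP, 7.95 on shTRIB1-1, 7.75 on shTRIB1-2, 9.55 on 2D and 6.30 on spheroid. The proliferation marker MKI67 was at 8.88, 8.35, 8.37, 9.73 and 6.60 in that order. Its 4 probe sets gave differences from -1.20 to -0.18, and the difference was -0.42 by their median. Against the same 2D array the TRIB1 hairpin medians were -1.14 and -1.21 for replication and -1.02 and -1.18 for G2 and M phase, and the spheroid medians were -1.65 and -2.78. In RNA from whole cultures, fewer dividing cells and less of these transcripts per cell cannot be told apart.

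A list of E2F targets and genes of the entry into S phase, drawn up after the values were seen, had 21 compared genes, all lower, 12 of them at least 2-fold, and a median of -1.17. The list holds FAM111B and ESCO2, so its count is no independent evidence. SKP2, which targets the inhibitor p27 for destruction, was at 9.50 on shGFP and 11.29 on 2D, and its 3 probe sets gave -1.79 to -1.0. CCNE2, a cyclin of the G1 to S transition, was at 8.56 and 10.29, and MCM10, a replication initiation factor, at 6.36 and 7.86. E2F1 itself differed little, with 7.87 and 8.02. Most members of the list of replication-dependent histones, a class made in S phase, went the other way. Of 8 compared genes 7 were higher and 4 at least 2-fold (2.13% of all compared genes were), and the median was 1.01. The 1 lower member was the linker histone H1-2, and the list does not hold H1-3 and H1-4, which were lower. On spheroid the list's median against the same 2D array was 1.55, beside -2.78 for G2 and M phase. Whether the histone values follow S phase was not tested. H2AC6 was at 10.75 on shGFP, 10.79 on shTRIB1-1, 10.92 on shTRIB1-2, 9.28 on 2D and 11.30 on spheroid, and H4C8 at 8.16, 8.30, 7.88, 6.76 and 8.02. For these 2 core histones the 2D array was the lowest of the 5. Of 4 compared linker histones, listed after the values were seen, 1 was higher and 3 were lower. H1-3 and H1-4 (5.11 on shGFP and 7.18 on 2D) were highest on 2D. H1-2 was at 9.50 and 9.80, and H1-10, at 7.10 and 6.70, was lowest on 2D. Probe sets of histone genes can detect several near-identical copies.

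Genes of cholesterol synthesis were mostly lower on shGFP. The pathway is switched on by SREBF2 when sterols run low. Of 14 compared genes 13 were lower and 5 at least 2-fold (2.11% of all compared genes were). The median was -0.77 (-0.52 when all probe sets of a gene were used). HMGCS1, an early enzyme of the mevalonate pathway, was at 8.50 on shGFP, 9.64 on shTRIB1-1, 8.85 on shTRIB1-2, 10.21 on 2D and 9.56 on spheroid. INSIG1, the sterol sensor that holds SREBP proteins in the ER, was at 9.71, 10.45, 9.77, 11.25 and 11.11. For both genes shGFP was the lowest of the 5 arrays and 2D the highest. FDPS was at 11.50 and 12.54 on shGFP and 2D, and IDI1 at 9.27 and 10.84, although the probe sets of IDI1 ranged from -1.57 to 0.22 and their median was -0.65. TMEM97, a sterol-regulated membrane protein outside the list, was at 9.68 and 11.23, and its 4 probe sets gave -1.72 to -1.51. SREBF2 was at 6.90 and 6.98. The sterol regulatory element TCACNCCAC, searched on both strands, was in the promoter of SREBF2 alone among 13 members that the table holds, and in 0.875% of all promoters.

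Fatty acid synthesis was also lower, in 8 of 10 compared genes, with a median of -0.53. At least 2-fold lower were 2 (2.11% of all compared genes were). Without probe sets that can detect related transcripts, 5 genes were left and the median was -0.19. ELOVL6, which elongates fatty acids, was at 7.0 on shGFP, 7.75 on shTRIB1-1, 6.64 on shTRIB1-2, 9.24 on 2D and 9.40 on spheroid, and FASN, fatty acid synthase, at 7.72, 8.05, 8.05, 8.82 and 7.27. By the median of its probe sets the difference of FASN was -0.55. The desaturase SCD was at 11.50 on shGFP and 12.19 on 2D. Genes of cholesterol export driven by the nuclear receptor LXR, listed after the values were seen because ABCG1 stood out, were higher in 7 of 7 cases with a median of 0.55. The list holds ABCG1, so its count is no independent evidence. ABCA1, the other main exporter, was at 9.71 on shGFP and 8.81 on 2D, and MYLIP, which degrades lipoprotein receptors, at 8.05 and 6.98 (0.79 by the median of its probe sets). A second probe set of ABCG1 gave 1.62.

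Several genes of adhesion, matrix and the response to cell shape differed between the arrays. Targets of YAP and TEAD, which report on cell spreading and density, were higher in 12 of 15 cases, 6 of them at least 2-fold, with a median of 0.42. Among the 11 genes at 8 or more on either array the median was 1.40. CCN1, a matrix protein, was at 12.95 on shGFP, 13.08 on shTRIB1-1, 12.99 on shTRIB1-2, 10.93 on 2D and 11.15 on spheroid, and CCN2 at 11.70, 11.42, 12.07, 9.48 and 9.27. For both genes the 3 hairpin arrays lay together above the other 2. AJUBA, a scaffold protein of cell contacts, was at 12.11 on shGFP and 10.52 on 2D, and the stress gene GADD45B at 10.15 and 7.84. The GADD45B probe set outside those that can detect related transcripts gave 0.80. NT5E, an enzyme that makes adenosine, was 2-fold lower, at 6.30 and 7.38, but -0.84 with a pseudocount of 32. Among mesenchymal genes 7 of 10 were higher, 4 at least 2-fold, with a median of 0.63. CDH11, a cadherin of bone-forming cells, was at 9.73 on shGFP, 9.78 on shTRIB1-1, 9.33 on shTRIB1-2, 7.29 on 2D and 6.08 on spheroid, and SNAI2, a repressor of epithelial genes, at 9.43, 10.41, 8.96, 7.24 and 6.55. Vimentin (VIM) did not follow, with 12.47 and 12.48, and SPARC, a matrix protein, was lower, at 7.31 and 8.50 (-0.81 by the median of its probe sets). The tight junction protein CLDN1 was at 8.72 on shGFP and 6.84 on 2D. It was the 1 gene at least 2-fold higher among 20 epithelial junction and keratin genes (2.13% of all compared genes were).

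Growth factor genes gave smaller groups. EGF family ligands and receptors were higher in 5 of 6 compared cases, with a median of 0.66. HBEGF, a ligand shed from the cell surface, was the 1 at least 2-fold higher (2.13% of all compared genes were). It was at 8.14 on shGFP and 7.13 on 2D (0.80 by the median of its probe sets). EGFR was at 9.91 and 9.19 and ERBB3 at 6.51 and 7.35. EDN1, a peptide made by many carcinomas that acts on bone and vessels, was at 8.77 on shGFP, 9.66 on shTRIB1-1, 9.24 on shTRIB1-2, 6.23 on 2D and 6.62 on spheroid. HES1, the repressor downstream of Notch, was at 11.37, 11.55, 11.38, 8.64 and 8.16, and KLF4, a zinc finger factor of epithelial differentiation, at 9.94, 9.82, 9.76, 7.29 and 10.01. HES1 and EDN1 were thus lower on 2D and spheroid than on all hairpin arrays, while KLF4 was low on 2D alone. In the TGF-beta and BMP list ID1, an inhibitor of differentiation, was at 11.59 and 9.96, and TGFBI, a matrix protein, at 6.23 and 7.99.

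Genes that sense foreign RNA or respond to interferon were examined because hairpin vectors can set off this response. No member of either list was 2-fold higher on shGFP. Of all compared genes 2.13% were, so for lists this short the absence says little. Of 10 compared genes in the list of RNA sensors and interferon inducers 5 were higher and 5 lower, with a median of -0.12. RIGI, which detects RNA ends, was at 7.30 on shGFP and 7.17 on 2D, and EIF2AK2, the kinase PKR, at 9.08 and 9.36. CGAS, a sensor of cytosolic DNA, was at 6.04 on shGFP, 6.18 on shTRIB1-1, 5.98 on shTRIB1-2, 7.51 on 2D and 6.08 on spheroid, with a difference of -1.47 that was -0.41 by the median of its probe sets. IFNB1 stayed under 6 on all arrays, with 3.65 and 3.71 on shGFP and 2D. Of 19 compared interferon-stimulated genes 9 were higher and 10 lower, 4 of them at least 2-fold lower (2.11% of all compared genes were). However, 4 of the 19 were under 6 on shGFP and were compared through their 2D level alone. Among the 15 at 6 or more on both arrays, 1 was at least 2-fold lower (1.63% of all such genes were). Against the same 2D array 4 of the 19 were at least 2-fold higher on shTRIB1-1 and 5 on shTRIB1-2. On shGFP the median was -0.29, and it was 0.08 among the 15 genes at 6 or more on both arrays. GBP1, a GTPase induced by interferon, was at 5.08 on shGFP, 8.69 on shTRIB1-1, 7.46 on shTRIB1-2, 7.07 on 2D and 8.21 on spheroid, with 3 probe sets from -2.11 to -1.91. GBP2, of the same family, was at 5.78, 8.09, 6.62, 6.84 and 8.57 (-0.76 with a pseudocount of 32). shGFP was the lowest of the 5 arrays for both. ISG15 was at 10.74 and 10.70 on shGFP and 2D, and IFIT1 at 8.30 and 8.68. Among MHC class I genes 10 of 11 were lower, none 2-fold, with a median of -0.25. The small RNA machinery that handles hairpins had a median of 0.00 over 11 genes, with DICER1 at 7.92 and 8.36 and AGO3 at 7.27 and 6.93.

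TRIB1, the gene targeted on the other hairpin arrays and a pseudokinase that recruits a ubiquitin ligase, was at 11.97 on shGFP, 11.91 on shTRIB1-1, 11.76 on shTRIB1-2, 11.04 on 2D and 11.23 on spheroid. Its level on 2D was thus below that of all 3 hairpin arrays, and the difference of 0.92 between shGFP and 2D was larger than that between shGFP and either TRIB1 hairpin array. Other lists were near the median of all genes. Ribosomal proteins had a median of 0.04, oxidative phosphorylation 0.01, glycolysis -0.12, metallothioneins and zinc transporters 0.04, and MYC with ribosome biogenesis genes -0.08, and none of their members differed 2-fold. The hypoxia list had a median of 0.12, with ADM, a vasodilator peptide, at 9.50 and 8.15 and the glucose transporter SLC2A1 at 8.53 and 7.51 (0.54 by the median of its probe sets). In the actin and serum response list 10 of 12 genes were lower with a median of -0.21, and TPM4, a tropomyosin, was at 7.29 and 9.21 (-0.81 by the median of its probe sets).

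**Figure D4:**
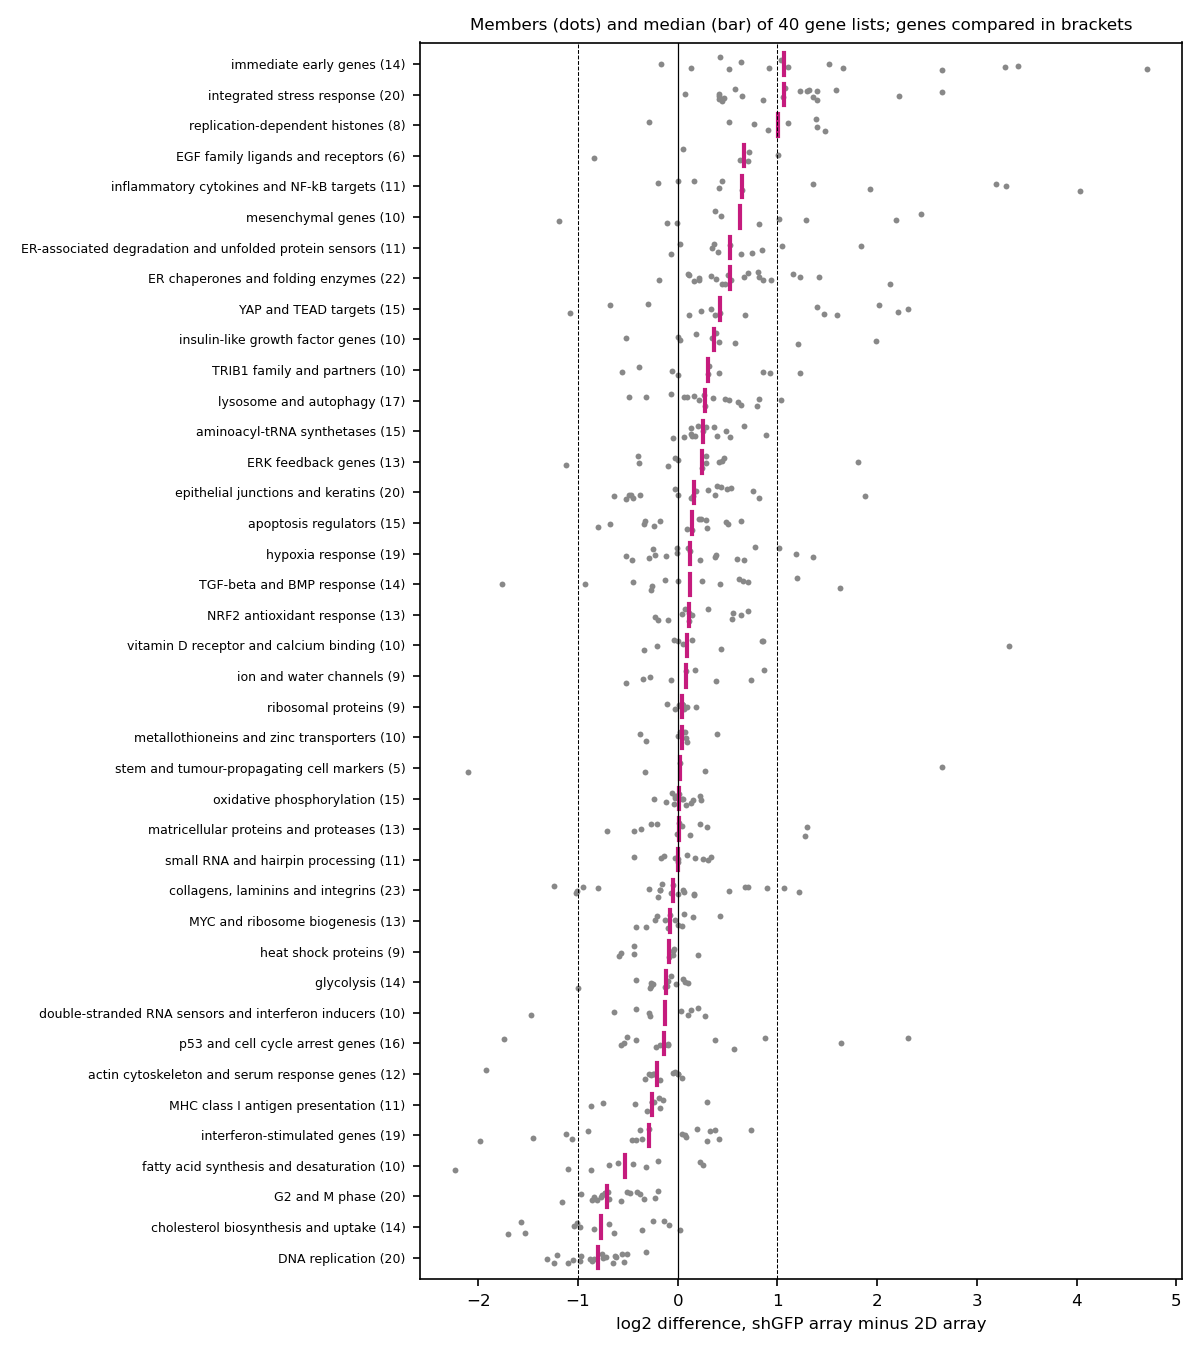
Difference between shGFP and 2D (log2) for the compared members of 40 gene lists, 1 dot per gene, with a bar at each list's median and dashed lines at 2-fold. Medians run from -0.80 for DNA replication to 1.07 for the immediate early and integrated stress response lists.

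The same 2D array is the reference for the other arrays too, so differences of several arrays from it share its values and are given side by side only. On the 3 hairpin arrays the medians were above 0 for the immediate early, inflammatory, integrated stress response and YAP lists and below 0 for DNA replication, G2 and M phase, cholesterol and fatty acid synthesis. Within these, the integrated stress response and ER chaperone medians were highest on shGFP, at 1.07 and 0.52. The immediate early medians were 1.80 on shTRIB1-1 and 1.56 on shTRIB1-2, above the 1.07 on shGFP. For interferon-stimulated genes the medians were -0.29 on shGFP, 0.18 on shTRIB1-1, 0.39 on shTRIB1-2 and 0.87 on spheroid.

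**Figure D5:**
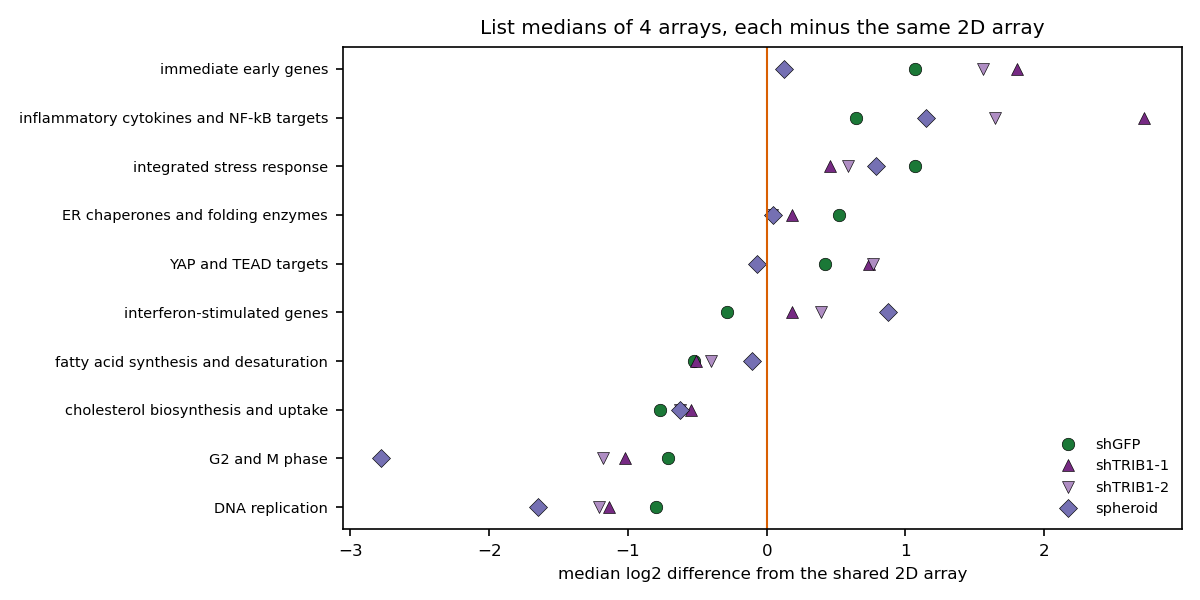
Median log2 difference from the 2D array (orange line at 0) for 10 gene lists on the shGFP, shTRIB1-1, shTRIB1-2 and spheroid arrays; all symbols share the 2D values. For DNA replication the medians are -0.80, -1.14, -1.21 and -1.65.

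Genes with several probe sets show how far a difference depends on the stretch of transcript that was probed. For 4352 genes with at least 2 probe sets at 6 or more on both arrays, the range of differences within a gene had a median of 0.23 and a 95th percentile of 0.88, and 157 genes spanned at least 1. Among 4763 genes with at least 2 probe sets at 6 or more on either array, 155 had a probe set 2-fold higher and 48 had all of them 2-fold higher. For lower differences these counts were 266 and 43. Probe sets that were not chosen to represent their gene numbered 7644, of which 133 were 2-fold higher and 276 lower, a less even split than that of the chosen ones. DHX9, an RNA helicase, had probe sets from -3.09 to -0.18: its lowest was at 7.42 on shGFP and 10.51 on 2D, and its chosen probe set at 8.85 and 9.03. MALAT1, a nuclear long noncoding RNA, ranged from -1.42 to 1.93, and the receptor gene MET from -1.21 to 1.03. LARS1, leucyl-tRNA synthetase, ranged from -2.0 to 0.21. These genes were named for the width of their range, and no direction is given for them. The 5′ to 3′ ratios of the control probe sets differed between these arrays, and their part in such ranges was not tested.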

How the data were processed

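The authors deposited probe set intensities on a linear scale, made with RMA per the submitters' processing notes, a method that subtracts background, equalises the arrays' distributions by quantiles and summarises probes. The linear scale was inferred from the range of the values. The median intensity was 33.0 on both compared arrays, and a shift shared by most genes would not show. The RMA version and the chip definition used were not given in the sources used here.

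Log2 was taken without a pseudocount. Of 54675 probe sets 41097 carry 1 gene symbol in the platform annotation, and 41043 matched RefSeq (GRCh38.p14) by Entrez identifier. Only these 41097 were used. Level filter, probe set choice and the 2-fold count are as described above. Only the counting was checked, by adding known shifts to levels of the shGFP array and counting them back. That check does not bear on the level filter or the probe set choice. With 1 array per condition no test was made. Alternatives were a level of 8 on either array, 6 on both, no filter, the median level of all probe sets of a gene on each array, no _s_at or _x_at probe sets, a pseudocount of 32, centring on the median and loess on the mean level. The number of arrays limits the precision.

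The comparison, its 40 gene lists (680 genes, of which 617 have a probe set and 529 were compared), its 7 marker lists and its rules were chosen with earlier results of these data known, and 6 lists were added after the values were seen. Named genes are the 12 highest and 12 lowest, the 10 highest and 10 lowest at 6 or more on both arrays with at least 2 probe sets at 6 or more on either array, all of these 2-fold different in the same direction, TRIB1, up to 4 members per list with the largest differences, and the 6 with the widest probe set range. Further list members were named after their values were seen. Python 3.11.15 with pandas 2.3.3 and numpy 2.4.6 was used.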

Additional observations from a re-analysis of the deposited data

How the results depend on the processing

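No paired analysis was possible because each condition has 1 array and no replicate numbers link the arrays. Among genes taken by the naming rule or named above that differed at least 2-fold, and lists with a median of at least 0.5 either way, none reversed under the 8 alternatives. For a single gene the level filters, the pseudocount and the centring cannot reverse a difference. Only the probe set settings and the loess could have done so, and the loess moved the named genes little. The probe set settings cannot reverse a gene with 1 probe set. Other genes were named because their probe sets at 6 or more shared a direction. For these genes the absence of reversals says little. Of the named genes under 2-fold, 5 reached it in at least 1 alternative. MALAT1, just short of 2-fold at -0.99, was at 1.93 without _s_at and _x_at probe sets. By the median of all probe sets DDX17 turned from 0.41 to -1.01, and DHX9 went from -0.18 to -1.61. The count of genes 2-fold higher, 223, was 145 with the median of all probe sets of a gene. The count 2-fold lower, 221, was 127 at a level of 8 on either array and 129 with a pseudocount of 32, both of which hold fewer or smaller differences by construction. At a level of 8 on either array the median was 1.25 for replication-dependent histones, 1.92 for the inflammatory list, 1.38 for immediate early genes and 1.40 for YAP and TEAD targets. Without _s_at and _x_at probe sets it was 0.77 for the histones, 0.90 for the inflammatory list, -0.98 for cholesterol synthesis, -0.19 for fatty acid synthesis and 1.29 for mesenchymal genes. With the median of all probe sets it was 0.85 for the integrated stress response, -0.52 for cholesterol synthesis and 0.24 for the EGF family. The inflammatory median was 0.29 at 6 on both arrays, 0.16 with no level filter and 0.43 with the pseudocount. With no level filter it was 0.19 for mesenchymal genes and 0.28 for the EGF family. The cause of these shifts was not tested. Of the 108 named genes that differed at least 2-fold, 30 came under 2-fold in at least 1 alternative. Of these, 21 did so with the median of all probe sets and 12 with the pseudocount. The medians of the interferon-stimulated and RNA sensor lists changed sign at a level of 8 on either array, to 0.08 and 0.12, and that of the interferon-stimulated list was also 0.08 at 6 on both arrays. Signal over background is the limit for genes under 6 on either array: 47 of the genes 2-fold higher were under 6 on 2D and 59 of those 2-fold lower were under 6 on shGFP.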

Other observations

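Transcripts encoded by the mitochondrial genome, listed after the values were seen, were lower on shGFP in 7 of 7 compared cases, with a median of -0.67. ND6, a subunit of complex I, was at 6.54 on shGFP, 7.28 on shTRIB1-1, 7.49 on shTRIB1-2, 8.03 on 2D and 8.39 on spheroid, and ATP6, a subunit of ATP synthase, at 11.26 on shGFP, 12.28 on 2D and 13.27 on spheroid. For both, shGFP was the lowest of the 5 arrays and spheroid the highest. The medians of this list against the same 2D array were -0.20 on shTRIB1-1, -0.10 on shTRIB1-2 and 0.99 on spheroid. Nuclear genes of oxidative phosphorylation had a median of 0.01 on shGFP. IGFBP5, which binds insulin-like growth factors, was at 6.31 on shGFP, 4.14 on shTRIB1-1, 9.36 on shTRIB1-2, 4.32 on 2D and 6.44 on spheroid. NES, the intermediate filament nestin, was at 7.40 on 2D and between 5.27 and 5.30 on the other 4 arrays. AQP3, a water and glycerol channel, was at 6.24 on shGFP, 10.04 on shTRIB1-1, 7.37 on shTRIB1-2, 5.38 on 2D and 10.37 on spheroid.

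Medians over runs of 25 neighbouring compared genes, in the gene order of RefSeq (GRCh38.p14), were also scanned, and the runs given here are those with the most extreme medians. On chromosome 5 the run from CKMT2-AS1 to MCTP1 had a median of 0.47 on shGFP against 2D, with 18 genes higher and 7 lower. Its medians for shTRIB1-1 and shTRIB1-2 were 0.24 and 0.35, and the shGFP median of all compared genes of the chromosome was 0.07. On chromosome 20 the run from KIF16B to NAPB had a median of 0.38, with 20 genes higher and 5 lower, and the medians for shTRIB1-1 and shTRIB1-2 were 0.45 and 0.26. The run from GPATCH11 to PLEKHH2 on chromosome 2 had a median of -0.37, with 3 genes higher and 22 lower, and -0.51 and -0.42 on shTRIB1-1 and shTRIB1-2. On chromosome 1 the run from ODF2L to MTF2 had a median of -0.41 on shGFP, with 9 genes higher and 16 lower. On the TRIB1 hairpin arrays its medians were -0.08 and -0.04. Neighbouring genes share both arrays and are not replicates.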
